A study of Mus musculus with 6 samples.

Results

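The subject of this section is the transcripts of 10 core enzymes of glycolysis: Gpi1, Pfkp, Aldoa, Tpi1, Gapdh, Pgk1, Pgam1, Eno1, Pkm and Ldha. They were taken as a list of gene symbols, chosen with earlier results of these data known and not by a threshold on measured values, and were 10 of the 34187 gene features counted in each library. Their levels were followed by treatment in 5 classes of cells from pancreatic tumors, namely NK cells, T cells, macrophage or monocyte-like cells, dendritic cell-like cells and tumor epithelial-like cells. The tumors grew in C57BL/6 mice from 6694c2vTRP1, an established mouse pancreatic adenocarcinoma line placed under the skin, and were collected on day 14 after 2 intraperitoneal doses given every other day from day 8. The mice received PBS (the vehicle), mono-IL10 at 26 µg per mouse, or IL10/2-Trikine at 30.6 µg per mouse. Mono-IL10 is a monomeric form of human IL-10, and IL10/2-Trikine joins it to an IL-2-derived arm that recruits IL-2Rβ to the IL-10 receptor complex, so that STAT5 is engaged beside STAT3. CD45+ cells were enriched with beads, the cells of each mouse were marked by hashtag antibodies, and the marked cells of a group were pooled into 1 library. The labels state 5 mice for each treated group, and in PBS, where they state no number, each of the 5 hashtags found was taken as 1 mouse. Mice were therefore the replicates, but treatment and library cannot be told apart in any comparison between groups, and the spread between mice does not hold the spread between libraries.

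Glycolysis splits glucose to pyruvate in the cytosol and yields ATP and NADH. Its early steps rearrange and cleave the hexose, its later steps recover ATP from the resulting trioses, and lactate dehydrogenase reduces pyruvate to lactate so that NAD+ is restored. The pathway is used heavily by activated lymphocytes, by inflammatory and hypoxic macrophages and by many carcinomas, and most of its genes are known targets of HIF-1 and MYC.

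The upstream sequences are given for 4 members, because a hypoxia response element is the best known regulatory feature of these genes and because Ldha and Pkm had the largest fold changes of any member called, in NK cells, Pgk1 was called in T cells, and Gapdh was called in each of the 3 classes other than NK and T cells. Each is the stretch of 250 bases before an annotated start in RefSeq, read 5′ to 3′ on the gene's strand in build GRCm38.p6. The count files were made on GRCm39, so these positions are not in the build of the counts. Capitals mark ACGTG or its reverse complement CACGT, the core of the hypoxia response element, and CACGTG counts as a match on each strand. The windows lie at chr7:46845554-46845803 on the plus strand for Ldha, chr9:59656977-59657226 on the plus strand for Pkm, chrX:106186850-106187099 on the plus strand for Pgk1, and chr6:125165774-125166023 on the minus strand for Gapdh.
Ldha: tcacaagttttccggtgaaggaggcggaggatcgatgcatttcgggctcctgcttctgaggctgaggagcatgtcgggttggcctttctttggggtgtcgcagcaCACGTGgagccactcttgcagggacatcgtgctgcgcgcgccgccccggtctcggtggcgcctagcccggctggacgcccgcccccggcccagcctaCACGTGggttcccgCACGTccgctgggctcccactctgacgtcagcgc
Pkm: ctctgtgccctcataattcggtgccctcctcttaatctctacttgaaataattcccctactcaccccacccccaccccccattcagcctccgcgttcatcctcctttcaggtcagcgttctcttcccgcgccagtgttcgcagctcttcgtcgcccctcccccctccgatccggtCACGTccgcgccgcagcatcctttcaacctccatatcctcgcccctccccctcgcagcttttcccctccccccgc
Pgk1: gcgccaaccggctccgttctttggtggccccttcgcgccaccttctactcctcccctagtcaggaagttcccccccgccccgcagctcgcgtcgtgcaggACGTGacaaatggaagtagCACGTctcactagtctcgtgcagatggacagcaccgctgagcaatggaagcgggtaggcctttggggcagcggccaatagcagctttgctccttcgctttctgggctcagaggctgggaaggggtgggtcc
Gapdh: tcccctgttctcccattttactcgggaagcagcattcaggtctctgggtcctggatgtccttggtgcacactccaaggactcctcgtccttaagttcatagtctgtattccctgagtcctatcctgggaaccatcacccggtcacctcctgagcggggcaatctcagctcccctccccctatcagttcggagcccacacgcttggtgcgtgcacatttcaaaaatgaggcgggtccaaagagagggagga

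The printed Ldha window held 5 matches, with each CACGTG counted on both strands, the Pgk1 window 2, the Pkm window 1 and the Gapdh window 0. Ldha and Pkm have more than 1 listed window, and the one with the most matches was printed. The other window of each held 0. Over all members, 16 such windows were listed, some of them overlapping starts of the same gene, and 6 of the 16 held a match. These belonged to 5 of the 10 members: Aldoa, Pgk1, Pgam1, Pkm and Ldha. Eno1, which was called in NK and T cells, was not printed, and each of its listed windows held 0. Of all 32851 windows of this length, 16.6% held the same letters. The letters TTCNNNGAA, the spacing bound by STAT dimers, stood in 7.02% of all windows and in 0 of the 16. A match is a description of the letters alone, and the lack of one says only that they are not in this window.

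The libraries held 44412 barcodes for PBS, 30528 for mono-IL10 and 55504 for IL10/2-Trikine, with median unique molecular identifiers (UMIs) per barcode of 6498, 8078 and 5198. Between 408 and 700 barcode sequences were shared by any pair of libraries. The NK and T classes followed the authors' annotated clusters. NK joined the clusters NK and Cycling_NK, and T joined all other annotated clusters. Among the latter were Th17/ILCs and gdT/NKT, which held 56, 56 and 30 cells with a mouse assigned in PBS, mono-IL10 and IL10/2-Trikine. The other classes were named from marker genes in clusters built without the 10 members, the other glucose genes and the hypoxia genes. For each mouse and class, the UMIs of all cells were summed, and a level is given as UMIs per 1000000 UMIs (CPM). These sums held 10 to 69 NK cells, 17 to 160 T cells, 355 to 1872 macrophage or monocyte-like cells, 22 to 104 dendritic cell-like cells and 523 to 2170 tumor epithelial-like cells per mouse. In mono-IL10 only 4 mice had at least 10 NK cells. A level in CPM is relative, so a higher level in a class cannot be told apart from less RNA of other genes in the same cells. The labels call all cells CD45+ lymphocytes, whereas the tumor epithelial-like class carried epithelial markers (Epcam, Krt8, Krt18, Krt19, Krt7, Cldn4 and Tff1) at a sum of 3962 to 6017 CPM, with Ptprc, which encodes CD45, at 6.40 to 47.0 CPM. In NK cells all 7 NK markers were found at a mean of 10 CPM or more over mice, as were 5 of 8 T cell markers, which summed to 151 to 503 CPM per mouse, and 3 of 4 markers of regulatory T cells, at 460 to 827 CPM. In T cells all 8 T cell markers and all 7 NK markers were found at that level. The dendritic cell-like class carried the markers of mature dendritic cells at 1381 to 4080 CPM and those of conventional dendritic cells at 400 to 808 CPM. It also carried those of macrophages or monocytes, at 2154 to 12394 CPM. A cluster led by Plet1, Clec9a and Xcr1 (377 cells) and one led by Ccl24, Chil3 and Ccr2 (1446 cells) stayed unnamed, so they lie outside the dendritic cell-like and macrophage or monocyte-like classes.

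All 10 transcripts were detected in every class and in every mouse, and none of the 10 was removed by the filter on low counts in any class. Together they took 0.198% ± 0.0217 (SD, n = 5) of all UMIs in NK cells of PBS mice, 0.267% ± 0.0219 in T cells, 0.336% ± 0.00969 in dendritic cell-like cells, 0.391% ± 0.0326 in macrophage or monocyte-like cells and 0.396% ± 0.0261 in tumor epithelial-like cells. The order of the classes differed from step to step of the pathway. Gpi1, which turns glucose 6-phosphate into fructose 6-phosphate, averaged 255 CPM in macrophage or monocyte-like cells of PBS mice and 116 in tumor epithelial-like cells, and the ranges of neighboring classes overlapped throughout the order. Pfkp, the platelet-type subunit of the committing enzyme phosphofructokinase, averaged 235 CPM in dendritic cell-like cells against 102 in macrophage or monocyte-like cells, with no overlap between mice of these classes, and was lowest in tumor epithelial-like cells at 31.7. Aldoa, which cleaves fructose 1,6-bisphosphate, differed little between neighbors, from 439 CPM in macrophage or monocyte-like cells to 272 in NK cells, with overlap at each step of the order.

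Tpi1, which interconverts the trioses, was highest in tumor epithelial-like cells at 381 CPM, followed without overlap by macrophage or monocyte-like cells at 262, dendritic cell-like cells at 216 and T cells at 150, whereas the ranges of T and NK cells (97.7) overlapped. Gapdh, the oxidizing step that makes NADH, averaged 885, 832, 774 and 657 CPM in tumor epithelial-like, macrophage or monocyte-like, dendritic cell-like and T cells, which overlapped as neighbors, and 441 in NK cells, which stood below. Pgk1, the first ATP-yielding kinase, was highest in macrophage or monocyte-like cells at 401 CPM, above dendritic cell-like cells at 287, which in turn were clear of tumor epithelial-like cells at 217. T cells and NK cells (147) overlapped with the class before them. Pgam1, which moves the phosphate group, ranged from 330 CPM in macrophage or monocyte-like cells to 86.8 in NK cells. The dendritic cell-like class stood clear of its neighbors in this order, at 225.

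Eno1, which makes phosphoenolpyruvate, ranged from 347 CPM in macrophage or monocyte-like cells to 211 in T cells, and every pair of neighbors overlapped. Pkm, the pyruvate kinase that yields the final ATP, was highest in tumor epithelial-like cells at 689 CPM, clear of macrophage or monocyte-like cells at 438, and lowest in NK cells at 161, clear of T cells at 319. Ldha, the A subunit of lactate dehydrogenase, averaged 520 CPM in tumor epithelial-like cells and 278 in NK cells, with overlap between all neighbors. NK cells of PBS mice thus held the lowest mean for 7 of the 10 transcripts, and the tumor epithelial-like class held the highest for 4. These orders were not tested.

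**Figure D1:**
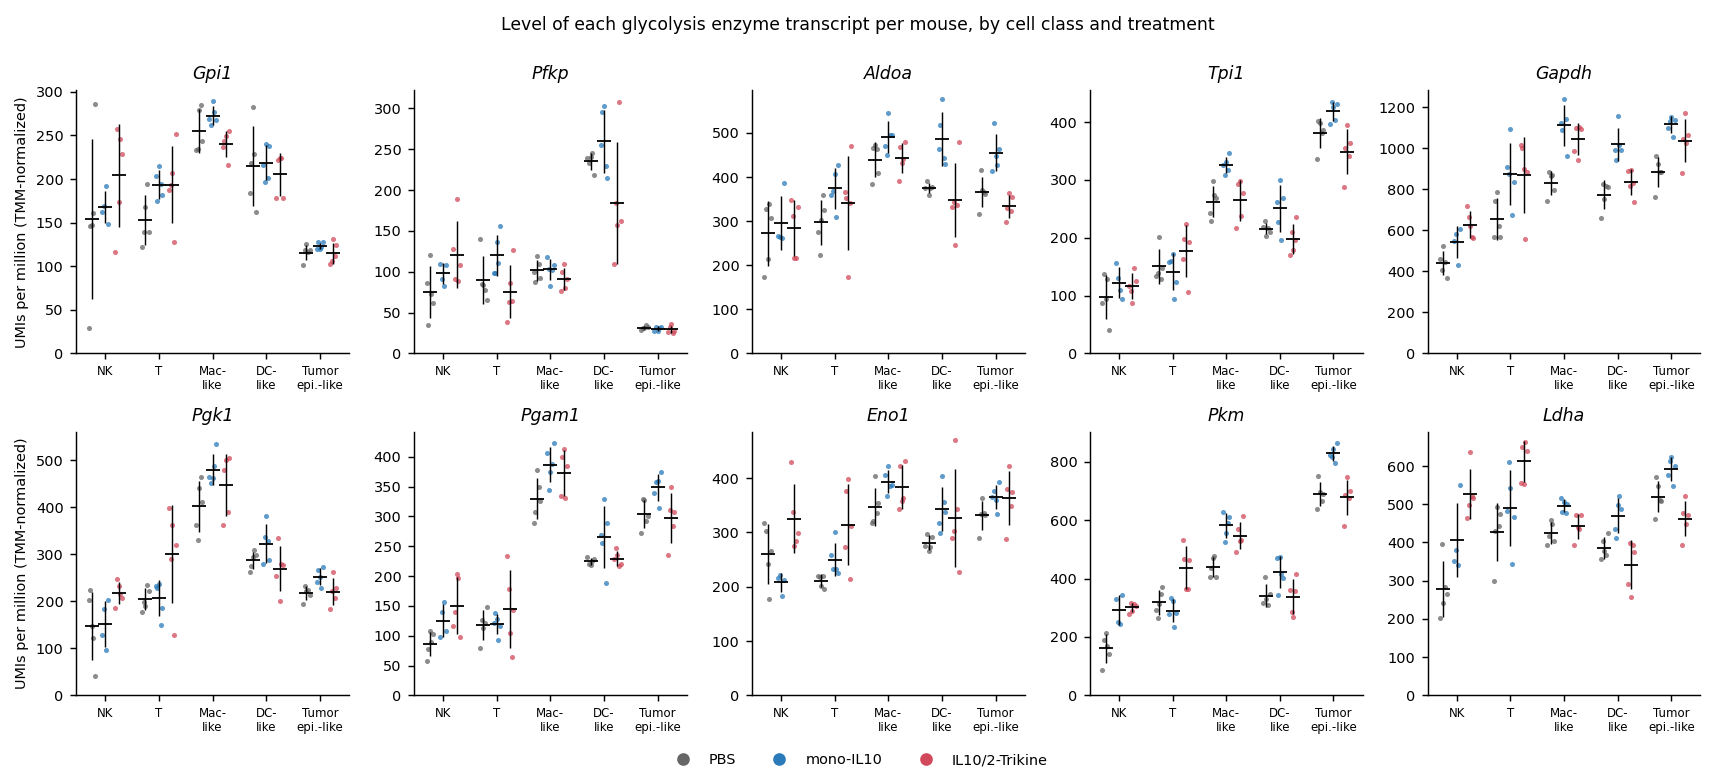
Level of each of the 10 transcripts (CPM, one panel per transcript, vertical axis from 0) by class of cells, with a point for each mouse, a horizontal line for the mean and a vertical line for the SD, in PBS, mono-IL10 and IL10/2-Trikine. In NK cells the IL10/2-Trikine points of Pkm and Ldha lie above every PBS point, and the mono-IL10 and IL10/2-Trikine points of Gapdh lie above every PBS point in macrophage or monocyte-like cells.

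In NK cells, Pkm and Ldha rose after IL10/2-Trikine relative to PBS, by 1.76-fold and 1.79-fold, and no other member passed the test in this comparison. All 10 log2 fold changes were above 0, with a median of 0.52 against -0.03 over all 2355 genes tested. The 2 members called higher by edgeR at an adjusted p under 0.05 compare with a background of 2.51% of all genes tested. The 10 transcripts together took 0.292% ± 0.0126 (SD, n = 5) of NK cell UMIs after IL10/2-Trikine and 0.236% ± 0.0233 (n = 4) after mono-IL10, and the mice of PBS (0.174% to 0.226%) and IL10/2-Trikine (0.277% to 0.306%) did not overlap.

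For Ldha, the NK cells of the 5 PBS mice held 202, 242, 266, 283 and 397 CPM, those of the 4 mono-IL10 mice 342, 351, 381 and 549, and those of the 5 IL10/2-Trikine mice 465, 499, 516, 521 and 638. Every IL10/2-Trikine mouse lay above every PBS mouse, and the mono-IL10 mice lay between, overlapping with both. The log2 fold change was 0.84 ± 0.19 (SE, adjusted p = 0.00971) for IL10/2-Trikine against PBS, 0.46 ± 0.19 (SE, adjusted p = 0.346) for mono-IL10 against PBS and 0.38 ± 0.16 (SE, adjusted p = 0.249) for IL10/2-Trikine against mono-IL10. Only the first passed the edgeR test. It did so with each mouse left out in turn, at 0.78 to 1.03.

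For Pkm, the NK cells held 86.6, 143, 169.5, 189.8 and 215 CPM in PBS mice, 246, 251, 330.0 and 342 in mono-IL10 mice and 279, 289.9, 304, 314 and 317 in IL10/2-Trikine mice. The PBS mice were the low group, and both treated groups stood clear of them and overlapped with each other. IL10/2-Trikine against PBS gave 0.82 ± 0.19 (SE, adjusted p = 0.0162) in log2, and it remained past the threshold with each mouse left out. Mono-IL10 against PBS, which shares the PBS mice, gave 0.76 ± 0.19 (SE, adjusted p = 0.0913), which did not pass. IL10/2-Trikine against mono-IL10 gave 0.05 ± 0.16 (SE, adjusted p = 0.925).

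Gapdh held 368, 406, 444, 462 and 524 CPM in PBS mice and 565, 569.6, 623, 666 and 720.0 in IL10/2-Trikine mice. These groups did not overlap either, but the log2 fold change of 0.51 ± 0.15 (SE, adjusted p = 0.0603) missed the edgeR threshold. Eno1 held 183, 212, 217 and 222 CPM in mono-IL10 mice, 275, 285, 299, 338 and 429.7 in IL10/2-Trikine mice and 178, 242, 266, 302 and 318 in PBS mice. The mono-IL10 mice were below every IL10/2-Trikine mouse, and the PBS mice spanned both. Eno1 was the single member called between IL10/2-Trikine and mono-IL10, at 0.64 ± 0.17 (SE, adjusted p = 0.0407), beside a background of 1.15% of genes called higher, and the call was lost in 8 of 14 fits that left out a mouse, with thinned counts and with no filter.

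Between mono-IL10 and PBS, 0 of the 10 members were called in NK cells by edgeR or DESeq2, with 2 (Pkm and Ldha) at an unadjusted p under 0.05, and 0.297% of genes were called in either direction. Among the early steps of the pathway, Gpi1, Pfkp, Aldoa and Tpi1 gave 0.43, 0.67, 0.02 and 0.11 in log2 for IL10/2-Trikine against PBS, none past the threshold. In 1 PBS mouse Gpi1 rested on 1 UMI, and the lowest count of Pfkp in any mouse was 3, and the SE of their log2 fold changes was 0.26 and 0.33. That PBS mouse, number 1, gave 10 NK cells with 59 UMIs over all 10 members. Its Pkm and Ldha levels therefore also rested on few UMIs, and the calls of both against PBS were kept without it.

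Several other features of the NK cells moved with the treatment, and further ones are given beside them. The 7 NK markers, which include Gzma and Prf1, summed to 1121 to 3365 CPM in PBS, 3561 to 4004 in mono-IL10 and 5688 to 11504 in IL10/2-Trikine. The 15 cell cycle transcripts summed to 1246 CPM in IL10/2-Trikine against 593 in PBS and 599 in mono-IL10, and Top2a, a topoisomerase of dividing cells, rose by 2.09 ± 0.46 in log2 against PBS (edgeR). Without the cycling clusters, Pkm and Ldha were still called against PBS, and the Eno1 call against mono-IL10 was lost. Over all alternatives the log2 fold change of Eno1 against mono-IL10 ran from 0.53 to 0.75. The nuclear RNA Malat1 averaged 3109, 2980 and 1955 CPM, and UMIs per cell averaged 3886, 6028 and 2879, in PBS, mono-IL10 and IL10/2-Trikine. Epithelial markers in NK cells averaged 41.6, 48.7 and 44.9 CPM in the same order. This was 0.767%, 0.912% and 1.07% of their level in the tumor epithelial-like class, which itself was 5418, 5337 and 4188 CPM. The 9 macrophage or monocyte markers summed to 147 to 1107 CPM in PBS, 621 to 1091 in mono-IL10 and 854 to 1057 in IL10/2-Trikine, and 7 of the 9 were at a mean of 10 CPM or more. The part of these in the result was not tested.

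**Figure D2:**
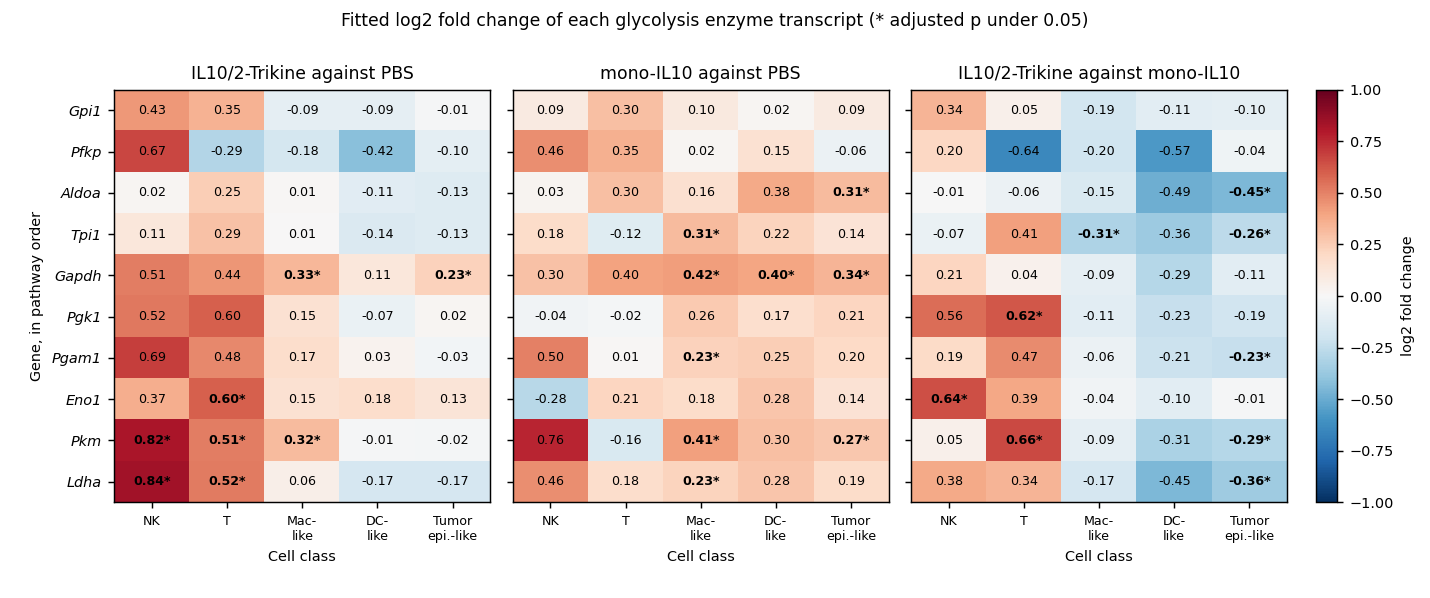
Color and number in each cell give the edgeR log2 fold change of each of the 10 transcripts (vertical axis, in pathway order) in each class (horizontal axis) for IL10/2-Trikine against PBS, mono-IL10 against PBS and IL10/2-Trikine against mono-IL10. Asterisks mark an adjusted p under 0.05. Pkm and Ldha in NK cells carry one, above 0, for IL10/2-Trikine against PBS. Aldoa, Tpi1, Pgam1, Pkm and Ldha in tumor epithelial-like cells carry one, below 0, in the last comparison, where Pkm and Ldha in NK cells were not called. A difference between NK and tumor epithelial-like cells was not tested.

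In T cells, Eno1, Pkm and Ldha rose after IL10/2-Trikine relative to PBS, by 1.52-fold, 1.42-fold and 1.43-fold. Pgk1 and Pkm rose relative to mono-IL10, by 1.54-fold and 1.58-fold. The median over members was 0.46 against PBS and 0.36 against mono-IL10, beside medians of -0.01 and 0.00 over all 3189 genes, of which 5.14% and 6.33% were called higher. Mono-IL10 against PBS gave a median of 0.20, with 0 members called by edgeR or DESeq2, 1 (Gapdh) at an unadjusted p under 0.05, and 1.69% of genes called in either direction.

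Pkm held 266, 293, 314, 349 and 371 CPM in PBS mice, 234, 278, 283, 322 and 332 in mono-IL10 mice and 363, 364, 462, 467 and 531 in IL10/2-Trikine mice. All 5 IL10/2-Trikine mice were above all mono-IL10 mice, and 3 of the 5 were above all PBS mice. In log2, IL10/2-Trikine differed by 0.66 ± 0.14 (SE, adjusted p = 0.00266) from mono-IL10, where it was called with each mouse left out, and 0.51 ± 0.15 (SE, adjusted p = 0.0325) against PBS, where the call was lost in 7 of 15 such fits.

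Ldha held 299, 429, 444, 473 and 494 CPM in PBS mice, 344, 468, 482, 543 and 610.4 in mono-IL10 mice and 553, 554, 639, 651 and 663 in IL10/2-Trikine mice. The IL10/2-Trikine mice were clear of the PBS mice and overlapped with mono-IL10. The log2 fold change against PBS was 0.52 ± 0.16 (SE, adjusted p = 0.0415), and 9 of 15 fits without a mouse lost the call. Against mono-IL10 it was 0.34 ± 0.15 (SE, adjusted p = 0.152).

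Eno1 held 195, 202, 218, 219.7 and 220.2 CPM in PBS mice and 214, 273, 311, 376 and 398 in IL10/2-Trikine mice. The IL10/2-Trikine mice were above all PBS mice except for 1 of the 5, and the log2 fold change was 0.60 ± 0.16 (SE, adjusted p = 0.0186). Pgk1 held 149, 185, 228, 233 and 236 CPM in mono-IL10 mice and 128, 289, 319, 363 and 398 in IL10/2-Trikine mice, where 4 mice were above and 1 was below all mono-IL10 mice, and the log2 fold change was 0.62 ± 0.18 (SE, adjusted p = 0.0268). That low mouse, number 4 by its hashtag, also held the lowest Gapdh of its group, at 556 CPM against 883 to 1015 in the others. Leaving out IL10/2-Trikine mouse 2 ended all 3 calls against PBS, and Pgk1 against mono-IL10 was lost in 6 of 15 fits. With every mouse thinned to the lowest total, and with no filter on low counts, all 5 T cell calls were lost, Pkm against mono-IL10 among them, and DESeq2 lost those of Ldha and Pgk1.

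The makeup of the T cell class differed between groups. The T cell markers summed to 2773 to 3440 CPM in PBS, 4108 to 4626 in mono-IL10 and 1615 to 2332 in IL10/2-Trikine, whereas the NK markers in the same sums held 401 to 747, 739 to 1367 and 1800 to 2941. In the annotated cluster Cycling_T, 62.8% of the IL10/2-Trikine cells with a mouse assigned were NK-like, against 27.9% in PBS and 14.1% in mono-IL10. An NK-like cell held more UMIs of Ncr1, Klrb1c, Klre1, Tyrobp and Fcer1g than of Cd3e, Cd3d, Cd3g, Trac and Trbc2. It could hold UMIs of both sets. Without these NK-like cells, 5 members (Gapdh, Pgk1, Eno1, Pkm and Ldha) were called higher in IL10/2-Trikine than in PBS. Without all cycling clusters, the calls of Eno1 and Ldha against PBS were lost, and 2 members (Gapdh and Pkm) were called, with Pkm at 0.91 in log2. These fits used only mice left with at least 10 cells, and their shares of all genes called are not given. For IL10/2-Trikine against PBS, 56 to 295 genes were called over the alternatives other than leaving out a mouse, against 288 in the main fit. IL10/2-Trikine mice 3 and 4 began with 19 and 17 T cells, so fewer mice may stand behind the fits that left out cells. Mouse 4 was the mouse with the low Pgk1 and Gapdh given above, and its part in these calls was not tested. Over the alternatives other than leaving out a mouse, the lowest log2 fold change against PBS was 0.50 for Eno1 and 0.41 for Ldha. Counting only cells with a mouse assigned, the annotated naive_CD8T cluster held 31, 121 and 2 cells in PBS, mono-IL10 and IL10/2-Trikine, and the naive_CD4T cluster 19, 29 and 0. In mono-IL10 the 10 transcripts took 0.196% of UMIs in naive_CD8T, 0.339% in act_CD4T and 0.437% in Treg, and their share in the whole T class was 0.267%, 0.301% and 0.347% in PBS, mono-IL10 and IL10/2-Trikine. The 15 cell cycle transcripts summed to 1966, 1880 and 3523 CPM in the same order, and 6 of the 14 that were tested were called higher against PBS, led by Rrm2, a subunit of ribonucleotide reductase, at 1.88 ± 0.25. Malat1 averaged 3253, 3256 and 1943 CPM, and UMIs per cell averaged 3594, 4821 and 3026. Epithelial markers reached 1.39%, 0.994% and 2.44% of their level in the tumor epithelial-like class. The part of these in the result was not tested.

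In macrophage or monocyte-like cells, Gapdh and Pkm rose in both treated groups, and Tpi1, Pgam1 and Ldha rose after mono-IL10. The fold changes were small, 1.26-fold for Gapdh and 1.25-fold for Pkm after IL10/2-Trikine, and 1.17-fold to 1.34-fold for the 5 members called after mono-IL10. In this class 8.67% of 11908 genes tested were called higher after IL10/2-Trikine and 12.7% after mono-IL10, so that 2 and 5 of 10 members stand beside a broad background. The median over members was 0.10 and 0.23, against 0.00 over all genes in both comparisons.

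Gapdh held 746, 797, 865, 869 and 884 CPM in PBS mice, 961, 1091, 1126, 1141 and 1241 in mono-IL10 mice and 943, 987, 1097, 1099 and 1105 in IL10/2-Trikine mice. Both treated groups were clear of PBS and overlapped with each other. The log2 fold change against PBS was 0.42 ± 0.07 (SE, adjusted p = 0.000288) for mono-IL10 and 0.33 ± 0.07 (SE, adjusted p = 0.00406) for IL10/2-Trikine. Both calls were made with each mouse left out in turn.

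Pkm held 404, 405, 435, 472 and 476 CPM in PBS mice, 525, 555, 591, 611 and 629 in mono-IL10 mice and 491, 528, 532, 569 and 615 in IL10/2-Trikine mice. Again the PBS mice were below all others. Pkm rose by 0.41 ± 0.07 (SE, adjusted p = 0.000316) in log2 for mono-IL10 and 0.32 ± 0.07 (SE, adjusted p = 0.00511) for IL10/2-Trikine, where the call was lost with cells of at least 2000 genes, at 0.22.

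Tpi1 was called in both comparisons that involve mono-IL10. It held 229.9, 243, 268, 274 and 297 CPM in PBS mice, 308, 317, 326, 331 and 346 in mono-IL10 mice and 217, 238, 278, 293 and 298 in IL10/2-Trikine mice. The mono-IL10 mice lay above every mouse of the other groups, which overlapped. Tpi1 rose by 0.31 ± 0.08 (SE, adjusted p = 0.00914) in log2 after mono-IL10 and differed by -0.31 ± 0.09 (SE, adjusted p = 0.0267) between IL10/2-Trikine and mono-IL10. It was the single member called in that comparison, where 6.30% of genes were called lower, all 10 members lay below 0 and 3 had an unadjusted p under 0.05. Leaving out IL10/2-Trikine mouse 1 or 4 or mono-IL10 mouse 5 ended this call, and the value ran from -0.34 to -0.23 over the 15 such fits.

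Ldha held 394, 405, 418, 448 and 460.0 CPM in PBS mice and 478, 480.2, 501, 507 and 517 in mono-IL10 mice, which did not overlap. This was a log2 fold change of 0.23 ± 0.06 (SE, adjusted p = 0.0118), and the call was lost without PBS mouse 1, with no filter and with thinned counts, where the value was 0.13. Pgam1 overlapped, at 0.23 ± 0.08 (SE, adjusted p = 0.0426), and this call was lost in 10 of 15 fits without a mouse and under the same settings. The other 5 members (Gpi1, Pfkp, Aldoa, Pgk1 and Eno1) lay between 0.02 and 0.26 in log2 after mono-IL10 and were not called.

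The macrophage or monocyte-like class was made of 11 clusters whose shares shifted with treatment. A cluster led by Cd163 held 24.5% of the class in mono-IL10, 8.02% in IL10/2-Trikine and 2.16% in PBS, and a cluster led by Cx3cr1 held 5.25%, 3.17% and 18.2%. In IL10/2-Trikine the class was mostly made of a cluster led by Ccl24 and Pf4, with 24.9% against 7.23% in PBS and 11.9% in mono-IL10, and one led by Ccl12 and Fcrls, with 28.3% against 8.21% and 6.06%. In PBS the 10 transcripts took 0.476% of UMIs in the former and 0.308% in the latter. Within single clusters, Gapdh was higher than in PBS in 11 of 11 after either agent, with a median log2 ratio of 0.40 in both. Pkm was higher in 11 of 11 after mono-IL10 and in 10 of 11 after IL10/2-Trikine, with medians of 0.30 and 0.27. Tpi1 was lower in IL10/2-Trikine than in mono-IL10 in 11 of 11, with a median of -0.37. The within-cluster medians after mono-IL10 were 0.20 for Tpi1, 0.12 for Pgam1 and 0.10 for Ldha. They rest on CPM of the plain total and the class values on a normalized total, so their sizes cannot be compared. These ratios are descriptions over clusters, which share their mice. The cell cycle transcripts summed to 803, 350 and 446 CPM in PBS, mono-IL10 and IL10/2-Trikine, and UMIs per cell averaged 5843, 7003 and 3112. Malat1 averaged 6526, 6643 and 5081 CPM, and epithelial markers reached 0.815%, 0.777% and 1.81% of their level in the tumor epithelial-like class. Markers of neutrophils, T cells, NK cells and fibroblasts also had their highest median in IL10/2-Trikine, and the mice of the treated groups did not overlap in these sums. Neutrophil markers summed to 303 to 476 CPM in PBS, 247 to 404 in mono-IL10 and 415 to 598 in IL10/2-Trikine, T cell markers to 29.9 to 48.1, 13.1 to 33.3 and 44.2 to 95.6, NK markers to 12.5 to 21.4, 4.06 to 14.2 and 21.8 to 45.2, and fibroblast markers to 14.7 to 26.9, 6.41 to 11.1 and 21.9 to 37.0. The part of these in the result was not tested.

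**Figure D3:**
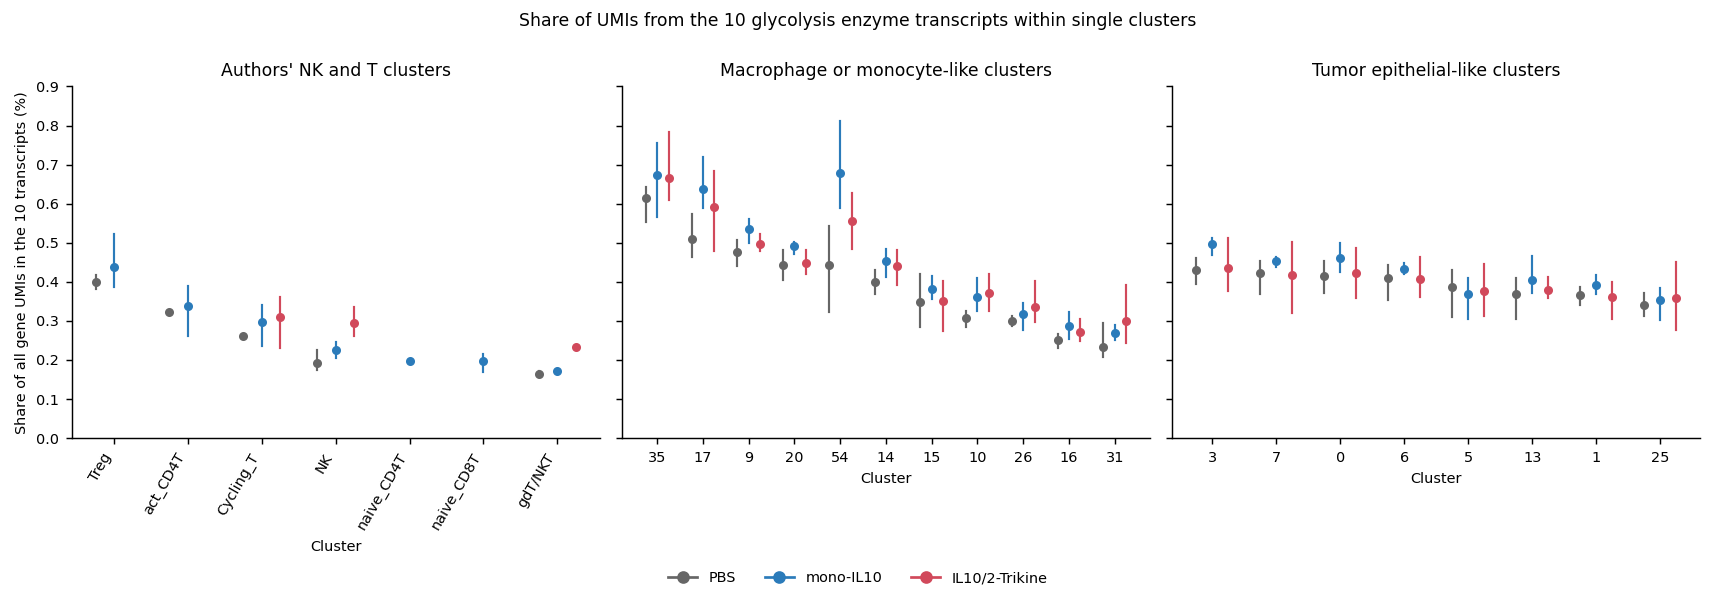
Share of all gene UMIs taken by the 10 transcripts (percent, vertical axis from 0) within single clusters, in the authors' NK and T clusters, the 11 macrophage or monocyte-like clusters and the 8 tumor epithelial-like clusters. Points are means over mice with at least 10 cells in the cluster and lines run from the lowest to the highest mouse. The annotated NK cluster goes from 0.193% in PBS to 0.296% in IL10/2-Trikine.

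In dendritic cell-like cells, Gapdh rose after mono-IL10, by 1.32-fold, and no other member was called in any of the 3 comparisons. Gapdh held 661, 751, 811, 819 and 828 CPM in PBS mice, 943, 991, 994, 1015 and 1158 in mono-IL10 mice and 739, 817, 833, 892 and 896 in IL10/2-Trikine mice. The mono-IL10 mice lay above all others, and the log2 fold change against PBS was 0.40 ± 0.09 (SE, adjusted p = 0.0302), beside a background of 1.38% of 6308 genes called higher. The call was lost in 5 of 15 fits without a mouse, and with every mouse thinned to the lowest total, where edgeR gave 0.18 (adjusted p = 0.65). All 10 members lay above 0 in this comparison, with a median of 0.26 against -0.01 over all genes, and 5 had an unadjusted p under 0.05.

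Between IL10/2-Trikine and PBS, 0 members were called by edgeR or DESeq2, 1 (Pfkp) had an unadjusted p under 0.05, and 0.238% of genes were called in either direction. Between IL10/2-Trikine and mono-IL10, edgeR called 0 members and 1.63% of genes at an adjusted p under 0.05. At an unadjusted p under 0.05 there were 6 members, and DESeq2 called 3 (Aldoa, Gapdh and Ldha). The latter counts have no share of all genes beside them. Over the alternatives other than leaving out a mouse, 15 to 449 genes were called in this comparison, against 103 in the main fit. All 10 log2 fold changes were below 0 there, with a median of -0.30. Within the 2 clusters of the class the values, here on CPM of the plain total, went both ways. The log2 ratios were -0.73 and 0.30 for Aldoa, -0.44 and 0.03 for Ldha and -0.23 and 0.08 for Gapdh. Eno1 and Gpi1 were higher in IL10/2-Trikine in both clusters, and Tpi1 (-0.33 and -0.28) and Pkm (-0.28 and -0.08) were lower in both. Aldoa held 430.2, 444, 464, 518 and 577 CPM in mono-IL10 mice and 246, 331, 336, 344 and 479 in IL10/2-Trikine mice, a log2 fold change of -0.49 ± 0.13 (SE, adjusted p = 0.0608). Ldha held 411, 435, 487, 498 and 521 and 257, 290.2, 374, 392 and 398, without overlap, at -0.45 ± 0.13 (SE, adjusted p = 0.0731). The class joined a cluster led by Plet1 and Ccl17 with 359, 247 and 172 cells in PBS, mono-IL10 and IL10/2-Trikine and one led by Ccl22 and Ccr7 with 192, 108 and 145. These numbers include cells with no mouse assigned. Epithelial markers reached 4.20%, 2.24% and 6.43% of their level in the tumor epithelial-like class, and the macrophage or monocyte markers summed to medians of 5465, 4622 and 4890 CPM. The neutrophil markers summed to medians of 1056, 236 and 645 CPM. UMIs per cell averaged 8397, 10653 and 4235, and Malat1 5388, 5128 and 4656 CPM. The part of these in the values was not tested.

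In tumor epithelial-like cells the members split between the agents. Aldoa, Gapdh and Pkm rose after mono-IL10, Gapdh alone rose after IL10/2-Trikine, and Aldoa, Tpi1, Pgam1, Pkm and Ldha were lower in IL10/2-Trikine than in mono-IL10. The background was wide for IL10/2-Trikine, with 9.20% of 14670 genes called higher than in PBS and 17.5% called lower than in mono-IL10, and narrower for mono-IL10, with 4.13% called higher than in PBS. The median over members was -0.03, 0.19 and -0.21 for IL10/2-Trikine against PBS, mono-IL10 against PBS and IL10/2-Trikine against mono-IL10, and 0.00, -0.01 and 0.01 over all genes.

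Aldoa held 317, 361, 366, 371 and 415 CPM in PBS mice, 414, 427, 448, 464 and 523 in mono-IL10 mice and 299, 322, 329.9, 354 and 364 in IL10/2-Trikine mice. The mono-IL10 mice were above every IL10/2-Trikine mouse and above the PBS mice except for 1 overlap. In log2, Aldoa gave -0.45 ± 0.07 (SE, adjusted p = 0.000239) for IL10/2-Trikine against mono-IL10 and 0.31 ± 0.07 (SE, adjusted p = 0.0176) for mono-IL10 against PBS, of which the second was lost without mono-IL10 mouse 2.

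Ldha held 463, 508, 512, 548 and 570.3 CPM in PBS mice, 549, 576, 599, 614 and 624 in mono-IL10 mice and 394, 447, 472, 477 and 522 in IL10/2-Trikine mice. The treated groups did not overlap with each other, and PBS lay between them. In log2, Ldha gave -0.36 ± 0.07 (SE, adjusted p = 0.000701) for IL10/2-Trikine against mono-IL10, whereas each agent against PBS was short of the threshold, at 0.19 ± 0.07 (SE, adjusted p = 0.109) for mono-IL10 and -0.17 ± 0.07 (SE, adjusted p = 0.0811) for IL10/2-Trikine.

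Pkm held 639, 667, 689.7, 696 and 751 CPM in PBS mice, 795, 815, 823, 845 and 863 in mono-IL10 mice and 580.5, 677, 686, 700.3 and 746 in IL10/2-Trikine mice. The mono-IL10 mice were above all others, with 0.27 ± 0.06 (SE, adjusted p = 0.0102) in log2 against PBS and -0.29 ± 0.06 (SE, adjusted p = 0.000954) for IL10/2-Trikine against mono-IL10. Tpi1 showed -0.26 ± 0.07 (SE, adjusted p = 0.00629) in the latter comparison, again without overlap, and Pgam1 -0.23 ± 0.08 (SE, adjusted p = 0.0427), with 1 mouse overlapping and the call lost in 10 of 15 fits without a mouse, with the other clustering, with only the 2 groups compared and without cycling clusters.

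Gapdh held 765, 887, 887, 923 and 961 CPM in PBS mice, 1054, 1101, 1134, 1140.3 and 1155 in mono-IL10 mice and 879, 1026, 1045, 1068 and 1172 in IL10/2-Trikine mice. All 5 mono-IL10 mice and 4 of the 5 IL10/2-Trikine mice were above every PBS mouse, and the treated groups overlapped with each other. The log2 fold change against PBS was 0.34 ± 0.07 (SE, adjusted p = 0.00732) for mono-IL10 and 0.23 ± 0.07 (SE, adjusted p = 0.0196) for IL10/2-Trikine. Eno1 gave 0.13, 0.14 and -0.01 in the 3 comparisons, in the order used for the medians, and was not called.

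Within the 8 tumor epithelial-like clusters, Gapdh was higher than in PBS in 8 of 8 after either agent, and Aldoa, Pkm and Ldha were lower in IL10/2-Trikine than in mono-IL10 in 8 of 8, with median log2 ratios of -0.36, -0.14 and -0.21. Tpi1 and Pgam1 were lower in 7 of 8, with medians of -0.16 and -0.09 (class values -0.26 and -0.23). Eno1 was higher in IL10/2-Trikine than in mono-IL10 in 8 of 8, with a median of 0.14 (class value -0.01). For mono-IL10 against PBS the within-cluster medians were 0.21 for Gapdh, 0.18 for Aldoa and 0.13 for Pkm. The ratios within clusters rest on CPM of the plain total and the class values on a normalized total, so their sizes cannot be compared. The groups also differed in depth, with 30762, 41985 and 11770 UMIs per tumor epithelial-like cell in PBS, mono-IL10 and IL10/2-Trikine, in Malat1, with 4470, 4326 and 3408 CPM, and in epithelial markers, with 5418, 5337 and 4188 CPM. Of the 15 cell cycle genes, 5 were called lower in IL10/2-Trikine than in PBS and 6 lower than in mono-IL10, beside 11.9% and 17.5% of all genes. Mitochondrial transcripts took 2.10% to 2.17% of UMIs in PBS, 2.11% to 2.40% in mono-IL10 and 2.22% to 2.52% in IL10/2-Trikine. Ribosomal protein transcripts took 16.4% to 17.1% of UMIs in PBS, 17.4% to 18.4% in mono-IL10 and 18.3% to 19.1% in IL10/2-Trikine. Neutrophil markers summed to 66.9 to 109 CPM, 33.6 to 89.2 and 94.7 to 169.9 in the same order, and macrophage or monocyte markers to 89.4 to 223, 48.7 to 105 and 113 to 638. NK markers summed to 14.7 to 44.8 CPM in this class in IL10/2-Trikine and to at most 6.62 in the other groups. Their part in the result was not tested.

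**Figure D4:**
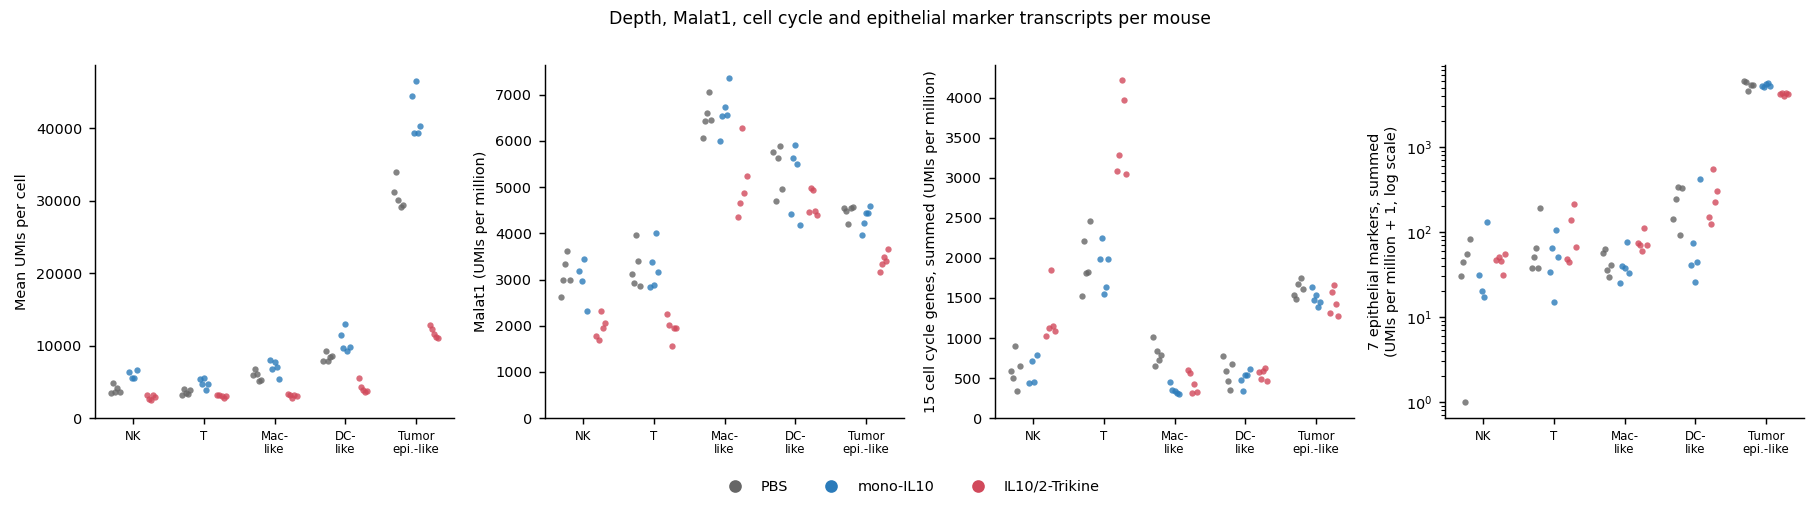
Features of the same summed cells that differed between groups, by class and mouse, with a point for each mouse and the measure and its unit on each vertical axis (log scale for the epithelial markers). UMIs per cell and Malat1 have their lowest mean in IL10/2-Trikine in every class, whereas the cell cycle transcripts are highest in IL10/2-Trikine in NK and T cells and highest in PBS in macrophage or monocyte-like cells.

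Whether the response to an agent differed between classes was tested on the difference of log2 fold changes, with the mouse as a block. This fit joins both classes, so that its difference need not equal that of the values from each class alone. Ldha responded differently to IL10/2-Trikine in NK cells and in macrophage or monocyte-like cells, by 0.88 ± 0.22 (SE, adjusted p = 0.00783) in log2, where the fits of each class alone gave 0.84 in NK cells and 0.06 in macrophage or monocyte-like cells. It was the 1 member of 10 called by edgeR in that comparison, where 1.69% of 8582 genes were called, and it was called with each mouse left out. Between these classes 0 members were called for IL10/2-Trikine against mono-IL10, with 3 at an unadjusted p under 0.05 and 1.08% of genes called, and 0 for mono-IL10 against PBS, with 2 and 1.34%. All shares of genes in these tests of the difference are at an adjusted p under 0.05, and none at an unadjusted p is given.

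Pkm responded differently in tumor epithelial-like and macrophage or monocyte-like cells to IL10/2-Trikine against PBS, by -0.29 ± 0.08 (SE, adjusted p = 0.0467), beside 5.27% of genes called. This call was lost in 12 of 15 fits without a mouse, where the difference ran from -0.30 to -0.23. Between these classes 0 members were called by edgeR for IL10/2-Trikine against mono-IL10, with 1 at an unadjusted p under 0.05 and 10.7% of genes called, and 0 for mono-IL10 against PBS, with 1 and 13.0%. NK and T cells were not shown to differ in any member, with 0 called in each of the 3 comparisons by edgeR, 0, 2 and 1 at an unadjusted p under 0.05, and 0.0770%, 0.796% and 0.128% of genes called for IL10/2-Trikine against PBS, IL10/2-Trikine against mono-IL10 and mono-IL10 against PBS. The difference with the lowest unadjusted p was that of Pkm for mono-IL10 against PBS, which gave 0.76 in NK cells and -0.16 in T cells when each was fitted alone and a difference in the joint fit of 0.999 ± 0.251 (SE, adjusted p = 0.174).

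The other genes of glucose use were read from 7 lists of 83 genes in all. In NK cells the lists were thinly covered: 0 of the 6 genes of glucose transport and entry and 0 of the 9 isozymes of the members passed the filter, and of 4 hypoxia-responsive genes tested Vegfa, which encodes an angiogenic factor, was lower, at -1.06 ± 0.19 in log2, after IL10/2-Trikine, beside 2.12% of all genes called lower. In T cells 2 of 4 regulators of transcription that were tested fell after IL10/2-Trikine relative to PBS, Stat5a at -0.91 ± 0.27 and Stat5b at -0.92 ± 0.27, and so did Mxi1, a MYC antagonist of the hypoxia list, at -0.94 ± 0.25, beside 3.89% of all genes called lower. Relative to mono-IL10, Stat5b changed by -1.08, Mxi1 by -1.23 and Vegfa by 1.15, where 6.02% of all genes were called lower and 6.33% higher. These values are edgeR log2 fold changes with SE, each past an adjusted p of 0.05.

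In macrophage or monocyte-like cells, 4 of 14 hypoxia-responsive genes tested rose after mono-IL10 and 0 fell, beside 12.7% of all genes tested in this class called higher and 12.2% called lower. The leading ones were Ddit4, an mTORC1 inhibitor induced by stress, by 1.78 ± 0.15, Ndrg1 by 1.04 ± 0.10 and Mxi1 by 0.58 ± 0.06. Of 6 transport and entry genes, 2 rose, the glucose transporter Slc2a1 by 0.40 ± 0.12 and hexokinase Hk2 by 0.32 ± 0.09, and the transporter Slc2a6 fell, at -0.96 ± 0.26. Of 12 regulators of flux and exit, 3 rose, namely Pfkfb3, which makes the activator of phosphofructokinase, at 0.57 ± 0.07, the lactate exporter Slc16a3 at 0.43 ± 0.10 and the pyruvate dehydrogenase kinase Pdk1 at 0.36 ± 0.11. Of 6 isozymes, Pfkl rose by 0.39 ± 0.10 and Ldhb fell, at -0.60 ± 0.13. Stat3, the main effector of the IL-10 receptor, rose by 0.50 ± 0.07 after mono-IL10 and by 0.31 ± 0.07 after IL10/2-Trikine, both within the list of regulators of transcription, of which 5 and 3 of 10 rose. Of 12 genes of other branches from glucose, 2 rose and 4 fell after mono-IL10, among them G6pdx at -0.36 ± 0.07 and Tkt at -0.35 ± 0.07, both of the pentose phosphate pathway.

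After IL10/2-Trikine the same class had 0 of 6 transport and entry genes called, 2 of 14 hypoxia-responsive genes higher (Ndrg1 and Ddit4) and Slc16a3 lower at -0.42 ± 0.11. Of all genes, 8.67% were called higher and 8.50% lower. Of 12 genes of other branches from glucose, 0 were higher and 5 lower, led by Tkt at -0.41 ± 0.08, Taldo1 at -0.33 ± 0.08 and Gpd2 at -0.31 ± 0.08. Compared directly with mono-IL10, IL10/2-Trikine gave lower Slc2a1 (-0.75), Hk2 (-0.51), Slc16a3 (-0.85), Pfkfb3 (-0.54) and Ddit4 (-1.24) and higher Slc2a6 (1.04), and of the 6 transport and entry genes 1 was higher and 2 were lower, while 6 of 14 hypoxia-responsive genes were lower and 0 higher, beside 6.30% of all genes called lower. Of all 11908 genes tested, 577 were called higher in this comparison, and the median over the 10 members was -0.13.

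In dendritic cell-like cells 2 of 10 hypoxia-responsive genes rose after mono-IL10, Ddit4 by 1.24 ± 0.23 and Ndrg1 by 0.55 ± 0.14, beside 1.38% of all genes called higher. Slc16a3 and Ndrg1 were lower in IL10/2-Trikine than in mono-IL10, at -0.93 ± 0.23 and -0.68 ± 0.16, where 1.63% of all genes were called in either direction. In tumor epithelial-like cells 3 of 5 transport and entry genes fell after IL10/2-Trikine relative to PBS, where 11.9% of all genes were called lower, namely Slc2a1 at -0.44 ± 0.09, Hk2 at -0.35 ± 0.08 and Hk1 at -0.22 ± 0.06, and these 3 were also lower than in mono-IL10, at -0.55, -0.46 and -0.29, with 1 of the 5 called higher. Pfkfb3 was lower than in PBS, at -0.53 ± 0.12, and lower than in mono-IL10, at -0.82 ± 0.12, whereas Pfkfb2 was higher than in mono-IL10, at 0.53 ± 0.15. Of the 13 regulators of flux and exit tested, 0 were higher and 5 lower than in PBS, and 1 was higher and 3 were lower than in mono-IL10. Against mono-IL10, 17.5% of all genes were called lower, and 2151 of 14670 were called higher. Of 15 hypoxia-responsive genes, 1 rose and 4 fell relative to PBS: Car9, a carbonic anhydrase, changed by 0.59 ± 0.13, Adm by -0.82 ± 0.20 and Ddit4 by -0.55 ± 0.11. Mono-IL10 against PBS left 0 of the 15 and 0 of the 5 transport and entry genes past the threshold in this class with edgeR. Of all 14670 genes tested there, 606 were called higher and 254 lower. Comparisons against PBS share its mice, and their values are given side by side.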

How the data were processed

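Cells of subcutaneous tumors were captured with the 10x Chromium GEM-X 5′ kit, in 1 library per treatment group with mice marked by hashtags. Per the submitters' processing notes, the authors used Cell Ranger 9.0.1 on GRCm39, Seurat 5.1.0 and DESeq2 1.46.0. The deposited matrices hold raw UMI counts per gene and barcode. A deposited table adds, per T or NK cell, the authors' cluster, hashtag call and percent of mitochondrial UMIs. Its 7858 cells of a group that has no sample here were not used. Its UMI totals equalled those of the matrices in 97.9%, 94.9% and 96.1% of PBS, mono-IL10 and IL10/2-Trikine cells.

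Kept barcodes had 1000 genes or more and no more than 10% of UMIs from mitochondria. Hashtags were called with Seurat 5.3.0 (quantile 0.99), and for annotated NK and T cells the authors' call gave the mouse. Barcodes with more than 1 hashtag (12.1%, 8.50% and 12.2%) were left out of the clustering as doublets. All other cells, annotated cells and those without a hashtag among them, were clustered on 2000 variable genes (40 components, 60 clusters). Cells with no mouse assigned were left out of the sums per mouse. Of the annotated NK and T cells, 348 of 516 had a mouse in PBS, 635 of 843 in mono-IL10 and 400 of 725 in IL10/2-Trikine. The counts of annotated clusters and the shares of macrophage or monocyte-like clusters also hold only cells with a mouse. For cells outside the annotated clusters, a cluster was named from at least 3 detected markers. That rule was tightened after a cluster with macrophage markers was seen to be led by T cell genes. Unnamed clusters held 42.9%, 36.9% and 41.8% of clustered cells, and differences from the study's own classes may come from these rebuilt names.

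UMIs were summed per mouse and class where at least 10 cells were found. Levels are UMIs per 1000000 UMIs (CPM) of the TMM-normalized total. Marker and cell cycle sums, Malat1 and values within single clusters are CPM of the plain total. Genes passing filterByExpr were tested with edgeR 4.0.16 (quasi-likelihood, all 3 groups in 1 fit per class, R 4.3.3), with Benjamini-Hochberg adjustment over all genes and a threshold of 0.05. The SE is the log2 fold change divided by the square root of its F statistic. Hashtag numbers do not pair mice across groups, and p-values measure only the spread between the mice of these libraries. The alternatives were DESeq2 1.42.0, other size factors, no filter, thinned counts, stricter cells, another clustering and leaving out each mouse. The edgeR step was tested on simulated data. Shares of all genes called are from edgeR at the adjusted threshold with the main settings. Counts of members at an unadjusted p, with DESeq2 or under another alternative have no such share beside them.

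All 10 members were named, and of 7 other lists up to 3 genes per list, class and comparison, by lowest adjusted p. The members and lists were chosen with earlier results of these data known. Aldoa is the feature ENSMUSG00000030695, since the symbol stands on more than 1. Reads shared with near-identical pseudogene copies could not be assigned with certainty. Python 3.11.15, scikit-learn 1.9.0, scipy 1.17.1 and matplotlib 3.10.9 were used for the rest.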

Additional observations from a re-analysis of the deposited data

Results flagged for a closer look

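In 165 groups of 4 or 5 mice, 4 single levels stood apart from the rest of their group by Dixon's test at the 95% level, where chance flags about 1 in 20 groups. They were Aldoa in NK cells of mono-IL10 mouse 5 at 387 CPM, Gapdh in T cells of IL10/2-Trikine mouse 4 at 556 CPM, Pfkp in T cells of PBS mouse 1 at 140.4 CPM and Tpi1 in T cells of PBS mouse 3 at 202 CPM. Aldoa in NK cells and Gapdh, Pfkp and Tpi1 in T cells were not called in any comparison with the settings of the report, whereas Gapdh in T cells was called under some alternatives, among them for IL10/2-Trikine against PBS without the NK-like Cycling_T cells and for mono-IL10 against PBS with no filter on low counts.

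The response to IL10/2-Trikine against PBS differed between classes for a pair of members by the test of the difference itself (edgeR, mouse as a block). For Ldha the difference of NK minus macrophage or monocyte-like cells was 0.88 in log2, and for Pkm that of tumor epithelial-like minus macrophage or monocyte-like cells was -0.29. The second was lost in 12 of 15 fits that left out a mouse.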

How the results depend on the processing

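Of 601 alternative values of the 26 called log2 fold changes, 514 kept their direction and their side of the threshold, 87 kept the direction only and 0 reversed. Of the 29 alternative values of the differences between classes, 17 kept both and 12 the direction only. Of 150 levels, 21 moved by more than 1 SD when taken as means over cells.

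The number of members called changed as follows, and the cause was not tested. In tumor epithelial-like cells no such count moved by more than 1.5 times, apart from fits without a mouse. For IL10/2-Trikine against PBS, T cells had 3 members called, but 0 with mice thinned to the lowest total, 0 with no filter on low counts and 5 without NK-like Cycling_T cells. It was 2 with DESeq2, which lost Ldha, and 2 without cycling clusters, which lost Eno1 and Ldha. In this comparison macrophage or monocyte-like cells had 1 instead of 2 with cells of at least 2000 genes (Pkm lost), and dendritic cell-like cells 1 instead of 0. For mono-IL10 against PBS, the change was from 0 to 1 in NK cells (Pkm) and in T cells (Gapdh) with no filter. It was from 5 to 3 in macrophage or monocyte-like cells under thinning and with no filter, and in dendritic cell-like cells from 1 to 2 with DESeq2 or with only the 2 groups fitted and to 0 under thinning. For IL10/2-Trikine against mono-IL10, NK cells went from 1 to 0 under thinning, with no filter and without cycling clusters. T cells went from 2 to 1 with DESeq2 and to 0 under thinning and with no filter. Macrophage or monocyte-like cells went from 1 to 2 with 30 components and 40 clusters and with cells of at least 2000 genes. Dendritic cell-like cells went from 0 to 3 with DESeq2, 2 with cells of at least 2000 genes and 4 with no filter. Thinning moved Gapdh in dendritic cell-like cells after mono-IL10 from 0.40 to 0.18 in log2, Ldha in macrophage or monocyte-like cells after mono-IL10 from 0.23 to 0.13, Pgk1 in T cells against mono-IL10 from 0.62 to 0.36 and Pkm in NK cells against PBS from 0.82 to 1.33. Without cycling clusters, T cell Pkm moved from 0.51 to 0.91 against PBS and from 0.66 to 1.03 against mono-IL10, and Pgk1 from 0.62 to 0.98 against mono-IL10. In tumor epithelial-like cells the Pgam1 call against mono-IL10 was lost with 30 components and 40 clusters, with only the 2 groups fitted and without cycling clusters. With cells of at least 2000 genes, NK cells could not be fitted, and in T cells only mono-IL10 against PBS could. Under any setting that removes cells, a mouse left with fewer than 10 cells of the class was not used.

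With each mouse left out in turn, NK cells had 2 to 3, 0 to 1 and 0 to 1 members called for IL10/2-Trikine against PBS, mono-IL10 against PBS and IL10/2-Trikine against mono-IL10. In the same order the ranges were 0 to 4, 0 and 1 to 2 in T cells, 2, 3 to 6 and 0 to 1 in macrophage or monocyte-like cells, 0, 0 to 1 and 0 to 1 in dendritic cell-like cells, and 1 to 2, 2 to 5 and 4 to 6 in tumor epithelial-like cells. The count of called differences of tumor epithelial-like minus macrophage or monocyte-like cells ran from 0 to 1 for IL10/2-Trikine against PBS and for IL10/2-Trikine against mono-IL10, in fits that were added after the data were seen. Leaving out IL10/2-Trikine mouse 2 ended all 3 T cell calls against PBS, PBS mouse 1 ended that of Ldha in macrophage or monocyte-like cells after mono-IL10, and mono-IL10 mouse 2 that of Aldoa in tumor epithelial-like cells. The Gapdh call in dendritic cell-like cells ended without PBS mouse 1 or 3 or mono-IL10 mouse 1, 3 or 4.

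The number of all genes called depended on the setting as well. For IL10/2-Trikine against PBS, mono-IL10 against PBS and IL10/2-Trikine against mono-IL10 it was 109, 7 and 59 in NK cells, with 40 to 109, 5 to 46 and 7 to 81 over the alternatives. In T cells it was 288, 54 and 394 (56 to 295, 16 to 135 and 84 to 492), in macrophage or monocyte-like cells 2044, 2973 and 1327 (930 to 2034, 1087 to 3092 and 414 to 1831), and in dendritic cell-like cells 15, 149 and 103 (12 to 166, 13 to 397 and 15 to 449). In tumor epithelial-like cells it was 3093, 860 and 4722 (2170 to 3185, 499 to 1266 and 3423 to 4901). A mouse gave as few as 10 NK, 17 T and 22 dendritic cell-like cells, and the part of depth in these ranges was not tested.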

Other observations

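Over the 74 sums per mouse and class, after each class mean was subtracted, the members differed in how closely they followed the mean of the other 9. Pearson's r was 0.77 for Ldha, 0.75 for Pkm, 0.72 for Gapdh and 0.63 for Pgam1, against 0.57 for Tpi1, 0.56 for Pgk1, 0.38 for Aldoa and for Gpi1, 0.36 for Eno1 and 0.18 for Pfkp. Among the 2157 genes outside all lists that were tested in every class, those most like the mean of the 10 were Tmem256 (0.65), the disulfide isomerase subunit P4hb (0.64), Dpysl2 (0.60), the actin-nucleating complex subunit Arpc4 (0.59) and the kinase Mapk6 (0.58). The points share libraries, mice and depth, and these values are descriptions with no test.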
